A study of Homo sapiens with 6 samples.

Results

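The genes described here are 9 genes of MHC class I antigen presentation: HLA-B, HLA-C and HLA-E, B2M, TAP1, TAP2, TAPBP, NLRC5 and IRF1. The rule that picks them is a list of symbols with no threshold on a measured value, but the list was drawn up with earlier results of these data known. All 9 were found among the 36601 genes of the deposited tables. The cells were of the human neuroblastoma line SK-N-BE(2)-C, long established in culture, and their RNA was read by single-cell RNA-seq with Seq-Well S3, in which single cells are paired with barcoded beads in small wells. There were 3 treatments with 2 libraries each. The control group received DMSO, the usual solvent. The second group received TSA, the usual abbreviation of trichostatin A, which blocks the catalytic activity of histone deacetylases (HDACs). The third received E6R, known here only by that name in a series whose title concerns a non-enzymatic inhibitor of an HDAC complex. The sources used here state no dose or time, and all groups are the same 1 cell line with no immune cells added. Nothing in the labels says whether replicates were separate cultures, so the tests measure only the spread between these libraries.

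Cells show fragments of their own proteins to T cells on MHC class I molecules. Proteasomes cut proteins into peptides, the transporter made of TAP1 and TAP2 carries the peptides into the endoplasmic reticulum, and tapasin, the product of TAPBP, holds the empty class I molecule at that transporter until a peptide binds. A class I molecule is a heavy chain, such as HLA-B, HLA-C or HLA-E, bound to beta-2 microglobulin, the product of B2M, without which it is not stable at the cell surface. HLA-B and HLA-C present peptides to T cells and are read by natural killer cell receptors, and HLA-E mainly presents leader peptides of other class I chains to the natural killer receptor that holds NKG2A. NLRC5 is the co-activator of class I genes, acting through an enhanceosome of RFX, CREB and NF-Y factors, and IRF1 is an interferon-induced transcription factor of several genes of the pathway. Neuroblastoma cells are known for low class I at the surface, and interferon gamma is known to raise it.

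The promoters of HLA-B and HLA-C, of B2M and of both transporter genes are shown here, with exact matches to short motifs of such factors. They come from RefSeq on GRCh38.p14, run from 200 to 41 bases before the gene start, and read 5′ to 3′ on the strand of the gene. Capitals mark matches, on either strand, to the core of the interferon-stimulated response element (GAAANNGAA), the NF-Y box (CCAAT), the core of the CREB site (TGACG) and the NF-kappa-B consensus.
HLA-B, chr6:31357220-31357379, minus strand: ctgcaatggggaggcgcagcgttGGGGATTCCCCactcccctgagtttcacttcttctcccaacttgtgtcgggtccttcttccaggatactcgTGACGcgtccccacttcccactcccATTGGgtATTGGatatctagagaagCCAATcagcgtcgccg
HLA-C, chr6:31272133-31272292, minus strand: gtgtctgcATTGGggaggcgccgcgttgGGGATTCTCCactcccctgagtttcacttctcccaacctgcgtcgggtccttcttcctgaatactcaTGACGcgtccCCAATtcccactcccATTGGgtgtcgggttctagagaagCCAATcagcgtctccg
B2M, chr15:44711317-44711476, plus strand: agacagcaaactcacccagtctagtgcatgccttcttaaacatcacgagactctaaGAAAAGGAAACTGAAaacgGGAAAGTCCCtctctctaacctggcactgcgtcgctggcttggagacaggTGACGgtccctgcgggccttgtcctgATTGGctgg
TAP1, chr6:32853745-32853904, minus strand: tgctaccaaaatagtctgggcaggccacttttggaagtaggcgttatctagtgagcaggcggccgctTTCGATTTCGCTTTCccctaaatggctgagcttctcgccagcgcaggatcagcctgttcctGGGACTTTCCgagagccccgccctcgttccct
TAP2, chr6:32838780-32838939, minus strand: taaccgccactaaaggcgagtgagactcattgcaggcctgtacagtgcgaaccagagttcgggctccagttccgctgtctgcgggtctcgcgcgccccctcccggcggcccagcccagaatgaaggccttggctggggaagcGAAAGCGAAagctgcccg

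Of the 9 genes, 7 had an entry in the RefSeq promoter table, and their windows ran from 250 bases before to 50 bases after the start. HLA-B and HLA-C had nearly the same promoter, with 269 of 304 aligned positions identical (88.5%). Both held TGACG, the NF-kappa-B consensus and CCAAT, which occurred 3 times in HLA-B and 4 times in HLA-C. The interferon element core GAAANNGAA was found in 4 of 7 genes, B2M, TAP1, TAP2 and TAPBP, against 8.11% of all 35116 promoters in the table. CCAAT was found in 5 of 7 (34.6% of all promoters) and TGACG in 5 of 7 (24.6%), in each case including HLA-B, HLA-C and B2M. The NF-kappa-B consensus was found in 6 of 7, all but TAP2, against 5.91%. A match is an exact run of letters, and whether a factor was bound was not measured. HLA-B and HLA-C had no match to GAAANNGAA, but variants of that core with other letters were not searched. The count therefore does not show that these genes lack an interferon element.

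After cells were kept at 500 or more genes and at most 20% mitochondrial UMIs, 17589 cells remained, 1861 to 3946 per library. A UMI, or unique molecular identifier, counts 1 captured RNA molecule. The UMI counts of each library's cells were summed, which gave 4206366 to 26180262 UMIs per library. Values of single genes below are CPM, UMI counts divided by library size, with TMM scaling between libraries unless stated otherwise. Sums over marker lists, and CPM set against small barcodes, are without TMM scaling. The TMM factors ran from 0.864 (TSA replicate 2) to 1.12 (DMSO replicate 1). Of 10 adrenergic neuroblastoma markers, 8 to 10 were above 10 CPM in each library, and the 8 T and B lymphocyte markers summed to 0.697 to 3.78 CPM. Mitochondrial UMIs made up 5.83% and 6.20% in DMSO, 6.08% and 9.71% in TSA, and 1.55% and 1.51% in E6R. The deepest 1% of cells held 22.9% of the UMIs in E6R replicate 2, and 11 to 58 cell barcodes were shared between 2 libraries where chance would give at most 0.774. Without the cells whose barcode recurred, each member kept the calls given below.

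The members differed between the 2 drugs. In TSA the heavy chains HLA-B and HLA-E were higher than in DMSO while TAP2 and TAPBP, both needed for peptide loading, were lower. In E6R no member passed the test against DMSO. All 9 members passed the low-count filter, which kept 16763 genes, and edgeR's quasi-likelihood test with Benjamini-Hochberg adjustment over all of those at 0.05 gave the calls. Against DMSO, TSA had 4 members called, 2 higher and 2 lower, where 29.7% of all genes tested were called (16.2% higher and 13.5% lower). E6R against DMSO had 0 called by edgeR, as for all genes tested (0%). At an unadjusted p under 0.05 that comparison had 1 member, TAP2, and 17.4% of all genes, and DESeq2 called 0 members and 415 genes. E6R against TSA had 6 members called, 3 higher and 3 lower, where 38.2% of all genes tested were called. Each pair of these comparisons shares a treatment group, so they are not independent, and E6R against TSA is the test of whether the drugs differed.

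**Figure D1:**
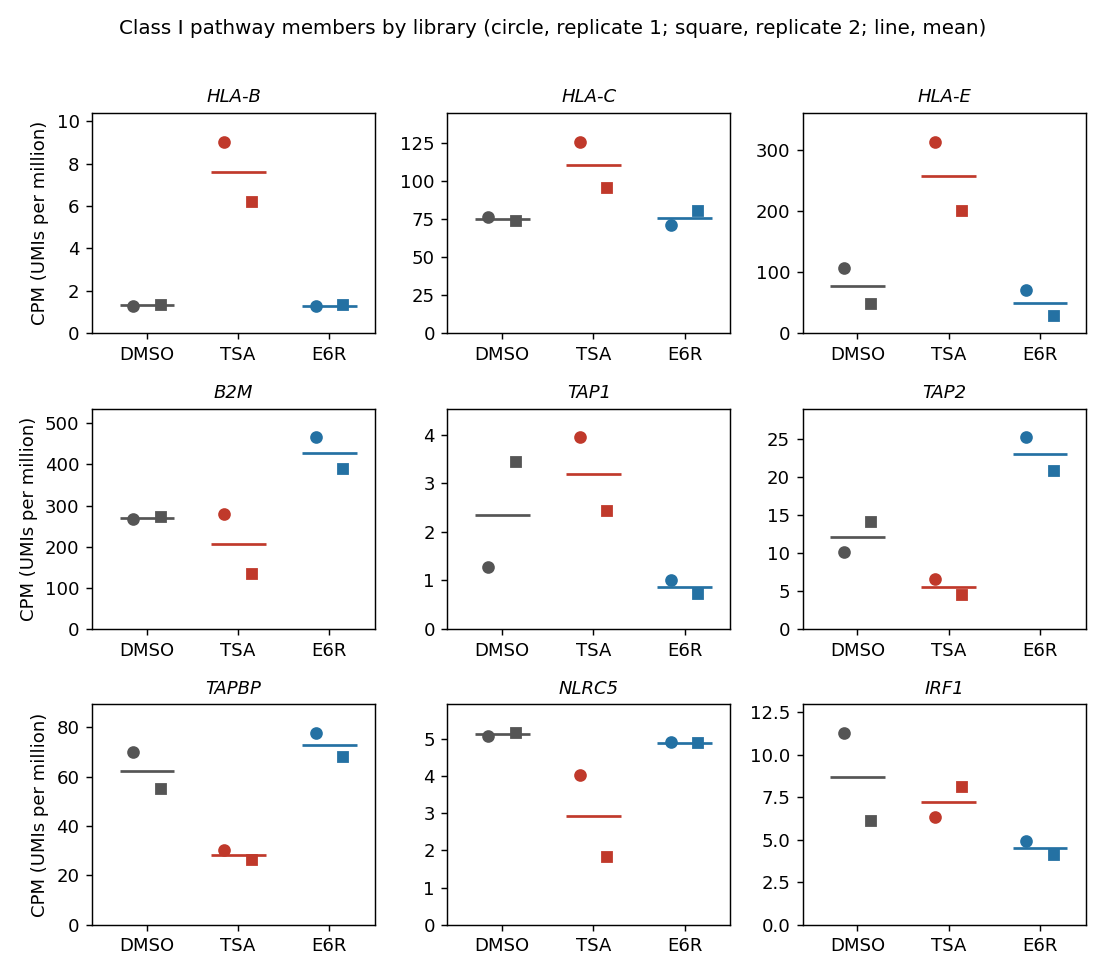
CPM, with TMM scaling, of the 9 genes (y axis, linear from 0, own scale for each gene) in the 2 libraries of each treatment (x axis). Points are libraries and lines are group means. HLA-B, HLA-C and HLA-E are highest in both TSA libraries, while B2M and TAP2 are highest in both E6R libraries and TAPBP is lowest in both TSA libraries.

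The heavy chains were highest under TSA. HLA-B (ENSG00000234745, chr6:31269491-31357188, minus strand, GENCODE 29 on GRCh38) was at 1.27 and 1.34 CPM in DMSO, 9.04 and 6.18 CPM in TSA, and 1.26 and 1.32 CPM in E6R. These rest on few molecules, 6 and 7 UMIs in DMSO, 119 and 71 in TSA, and 20 and 35 in E6R. Both TSA libraries were above all others, and the DMSO and E6R libraries overlapped. HLA-B rose 5.79-fold in TSA, which is 2.53 on the log2 scale (SE 0.48, edgeR adjusted p = 0.00765). E6R was lower than TSA by a log2 difference of -2.55 (SE 0.44, edgeR adjusted p = 0.00354). Against DMSO the E6R difference was -0.02, with a 95% interval of -1.15 to 1.12. Without TSA replicate 1 both calls of HLA-B were lost, at a log2 fold change of 2.26 against DMSO (edgeR adjusted p = 0.0769) and -2.25 for E6R against TSA (edgeR adjusted p = 0.051).

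HLA-E (chr6:30489467-30494205, plus strand) was at 106 and 47.0 CPM in DMSO, 313 and 200 CPM in TSA, and 70.4 and 27.5 CPM in E6R. TSA was above the other groups, and the E6R and DMSO libraries overlapped. HLA-E rose 3.36-fold in TSA, or 1.75 on the log2 scale (SE 0.51, edgeR adjusted p = 0.0368), and E6R was lower than TSA by -2.39 (SE 0.52, edgeR adjusted p = 0.00926). Replicate 1 was above replicate 2 in each of the 3 treatments. The 12 mesenchymal neuroblastoma markers, a list that marks the other known state of such lines, had the same order within each treatment, with sums of 1865 and 1199 CPM in DMSO, 3687 and 2350 CPM in TSA, and 2959 and 1786 CPM in E6R. Of those 12 markers, 5 to 9 were above 10 CPM in each library and 0 were without a UMI. That order of replicates was not particular to this list. Endothelium markers summed to 124 and 35.7 CPM in DMSO, 44.5 and 19.7 CPM in TSA, and 138 and 21.8 CPM in E6R. Schwann cell markers had the same order, adrenergic markers had the reverse in each treatment, and the remaining lists were mixed. The E6R libraries had higher mesenchymal marker sums than the DMSO libraries of the same number, and less HLA-E, a difference that was not called. The part of the mesenchymal state in the HLA-E values was not tested. The call against DMSO was lost without DMSO replicate 2 (1.20, edgeR adjusted p = 0.192), TSA replicate 1 (1.42, 0.183) or TSA replicate 2 (2.07, 0.0833). It was also lost with library size alone as the scaling (1.44, edgeR adjusted p = 0.0662) and without the 5% deepest cells (1.62, 0.0538). The call of E6R against TSA was lost without TSA replicate 1 (-2.02, edgeR adjusted p = 0.062).

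HLA-C (chr6:31268749-31272130, minus strand), whose promoter is close in letters to that of HLA-B, was at 76.3 and 73.8 CPM in DMSO, 126 and 95.5 CPM in TSA, and 71.1 and 80.6 CPM in E6R. With TMM scaling TSA was above both other groups, which overlapped. Divided by library size alone, HLA-C was at 85.3 and 80.5 CPM in DMSO and 116 and 82.4 CPM in TSA. In E6R it was then at 71.4 and 81.9 CPM, and TSA replicate 2 was below DMSO replicate 1. The log2 difference of TSA from DMSO was 0.56 (SE 0.21, 95% interval 0.09 to 1.04), and edgeR's adjusted p of 0.0735 missed the threshold. For E6R against TSA it was -0.55 (edgeR adjusted p = 0.0662), and for E6R against DMSO 0.02, with an interval of -0.46 to 0.49. HLA-C was called for TSA against DMSO in 1 of 20 alternatives, all deposited barcodes (0.69, edgeR adjusted p = 0.0419), and for E6R against TSA in 1 of 20, at most 10% mitochondrial UMIs (-0.65, edgeR adjusted p = 0.0425). In the annotation HLA-B and HLA-C overlap on the same strand, because a long HLA-B transcript reaches into HLA-C. The longest coding transcripts shared few words of 50 bases: 2.00% of those of HLA-B were found in HLA-C and 0.0668% in HLA-E. The sources used here do not say how reads that fit several of these genes were assigned, so the split between HLA-B and HLA-C is uncertain. The 3 genes outside the pathway with the pattern most like HLA-C over the 6 libraries, of 7511 compared at 20 CPM or more, were FAM207A, FN3KRP and DNASE1L1, at root-mean-square differences of 0.0515, 0.0607 and 0.0695 log2 units.

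B2M (chr15:44711487-44718877, plus strand), the light chain, did not follow the heavy chains. It was at 266 and 272 CPM in DMSO, 279 and 134 CPM in TSA, and 466 and 388 CPM in E6R. Summed over cells, both E6R libraries were above all others, and DMSO and TSA overlapped, with TSA replicate 2 the lowest of the 6. For E6R replicate 2 the difference from DMSO lay mainly in the deepest cells. Its shallowest, middle and deepest cells, without TMM scaling, were at 261, 272 and 407 CPM. DMSO replicate 1 was then at 249, 247 and 320 CPM, and DMSO replicate 2 at 296, 271 and 307 CPM. E6R replicate 1 was above both DMSO libraries at each depth, at 414, 426 and 477 CPM. E6R was 2.07-fold higher than TSA, a log2 difference of 1.05 (SE 0.33, edgeR adjusted p = 0.0366). The difference of E6R from DMSO, 0.67 (interval -0.09 to 1.42), missed the threshold at an edgeR adjusted p of 0.333, and that of TSA from DMSO was -0.38 (interval -1.13 to 0.37, edgeR adjusted p = 0.399). The call of E6R against TSA was lost without TSA replicate 2, where the difference fell to 0.61 (edgeR adjusted p = 0.173), and without E6R replicate 1 (0.99, edgeR adjusted p = 0.0598). TSA replicate 2 was also the library with most mitochondrial UMIs, and with cells held to at most 10% mitochondrial UMIs the difference was 0.91 (edgeR adjusted p = 0.078). The call was lost too without the 5% deepest cells (0.89, edgeR adjusted p = 0.0732) and with cells thinned to 1000 UMIs (0.89, 0.0591). The closest patterns to B2M among other genes were those of MRPS14, NAA20 and GMFB, at 0.0963, 0.114 and 0.120 log2 units.

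The UMIs of HLA-B, HLA-C and HLA-E together per UMI of B2M set the heavy and light chains side by side within each library. This ratio was chosen after the values of its parts were seen. It was 0.689 and 0.449 in DMSO, 1.61 and 2.25 in TSA, and 0.307 and 0.282 in E6R. The 3 groups did not overlap, with TSA highest and E6R lowest. With 2 libraries against 2, the exact permutation test (two-sided) of each pair of groups came to p = 0.333, the smallest it can give.

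**Figure D2:**
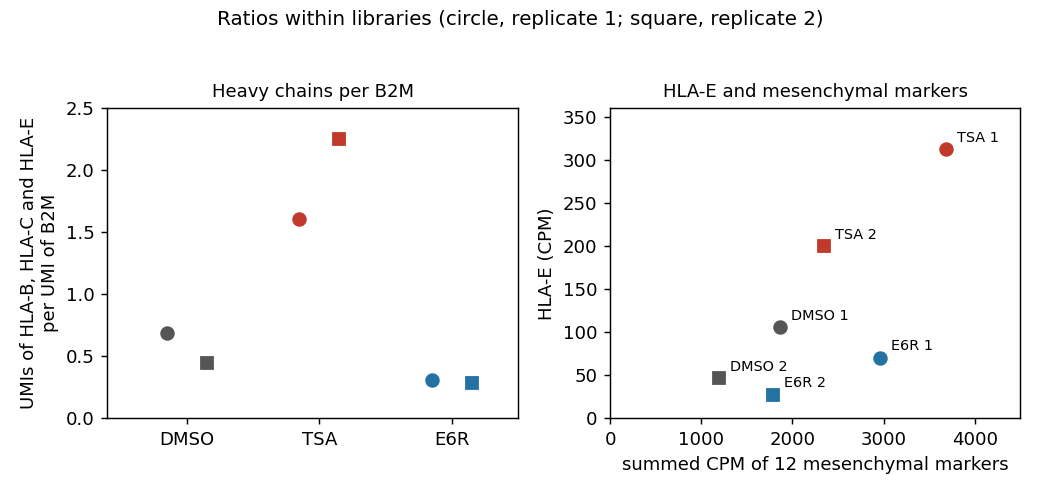
Left, UMIs of the 3 heavy chain genes per UMI of B2M (y axis) by treatment (x axis). Right, HLA-E in CPM with TMM scaling (y axis) against the summed CPM, without TMM scaling, of 12 mesenchymal markers (x axis). Each point is 1 library. The TSA libraries have ratios of 1.61 and 2.25, above all others, and replicate 1 lies above and to the right of replicate 2 in each treatment on the right. Sums of endothelium and Schwann cell markers, not drawn, had the same order of replicates.

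The genes of peptide transport and loading had another order, lowest in TSA for TAP2 and TAPBP. TAP2 (chr6:32821833-32838780, minus strand), the other chain of the transporter, was at 10.2 and 14.2 CPM in DMSO, 6.61 and 4.53 CPM in TSA, and 25.3 and 20.9 CPM in E6R, and no libraries of different groups overlapped. TAP2 fell in TSA to 0.458 times the DMSO level, a log2 change of -1.13 (SE 0.33, edgeR adjusted p = 0.0376). It was 4.13-fold higher in E6R than in TSA, a log2 difference of 2.05 (SE 0.33, edgeR adjusted p = 0.00274). E6R against DMSO gave 0.92 (interval 0.17 to 1.66), with an edgeR adjusted p of 0.228 that missed the threshold. The call of TSA against DMSO was lost on leaving out any 1 of its 4 libraries: DMSO replicate 1 (-1.30, edgeR adjusted p = 0.0647) or 2 (-0.94, 0.156), TSA replicate 1 (-1.40, 0.091) or 2 (-0.84, 0.243). It was lost as well with cells of at most 10% mitochondrial UMIs (-1.09, edgeR adjusted p = 0.0635) and with all deposited barcodes (-1.02, 0.0578). That of E6R against TSA stood under each of 20 alternatives.

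TAPBP (chr6:33299694-33314387, minus strand) was at 69.9 and 54.9 CPM in DMSO, 30.1 and 26.0 CPM in TSA, and 77.6 and 67.9 CPM in E6R. Both TSA libraries were below all others, and DMSO and E6R overlapped. TAPBP fell in TSA to 0.450 times the DMSO level, a log2 change of -1.15 (SE 0.22, edgeR adjusted p = 0.00749), and was 2.59-fold higher in E6R than in TSA, at 1.37 (SE 0.22, edgeR adjusted p = 0.00246). E6R differed from DMSO by 0.22, with an interval of -0.27 to 0.71. The fall in TSA lost its call without DMSO replicate 1 (-0.93, edgeR adjusted p = 0.0563), TSA replicate 1 (-1.23, 0.0504) or TSA replicate 2 (-1.01, 0.0862). The difference of E6R from TSA stood under each of 20 alternatives.

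TAP1 (chr6:32845209-32853978, minus strand), the partner of TAP2 in the same transporter, was scarce and did not share its pattern. It was at 1.27 and 3.44 CPM in DMSO, 3.95 and 2.44 CPM in TSA, and 1.01 and 0.715 CPM in E6R, from 6 and 18, 52 and 28, and 16 and 19 UMIs. DMSO and TSA overlapped and E6R was below both. TAP1 was 0.269 times as high in E6R as in TSA, a log2 difference of -1.89 (SE 0.61, edgeR adjusted p = 0.0416). That call held in 10 of the 19 alternatives that tested the gene, and was lost without TSA replicate 1 (-1.49, edgeR adjusted p = 0.244) or 2 (-2.19, 0.109), and without E6R replicate 1 (-2.07, 0.0587) or 2 (-1.63, 0.11). The other 5 settings that lost it included the DESeq2 test (-1.83, adjusted p = 0.0551) and leaving out the 5% deepest cells (-1.53, edgeR adjusted p = 0.0868). E6R against DMSO gave -1.46 (interval -2.95 to 0.02, edgeR adjusted p = 0.291), and TSA against DMSO 0.43 (interval -0.995 to 1.85). The closest patterns, those of PLEKHM1, CYB561D1 and DCXR, were at 0.368, 0.383 and 0.391 log2 units, further than for HLA-C or B2M.

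PSMB9, an interferon-inducible proteasome subunit, lies beside TAP1 on the opposite strand, and their RefSeq promoter windows overlap (TAP1 chr6:32853655-32853954, PSMB9 chr6:32853942-32854241). PSMB9 was at 4.25 and 2.87 CPM in DMSO, 8.58 and 5.49 CPM in TSA, and 1.01 and 0.828 CPM in E6R, the order TAP1 had for TSA and E6R. It was lower in E6R than in TSA by a log2 difference of -2.93 (SE 0.48, edgeR adjusted p = 0.00290), in 19 of 19 alternatives. Its other comparisons, 0.99 for TSA and -1.95 for E6R against DMSO, had edgeR adjusted p-values of 0.142 and 0.205. The annotated genes overlap on opposite strands and the sources used here do not state whether the counting used strand, so reads of one could in part be those of the other. PSMB8, the neighbouring subunit, ran the other way, at 4.89 and 4.21 CPM in DMSO, 2.96 and 1.83 CPM in TSA, and 5.81 and 5.61 CPM in E6R (E6R against TSA 1.25, SE 0.42, edgeR adjusted p = 0.0480). The PSMB8 call held in 9 of 20 alternatives and was lost without either TSA library (1.64 and 0.94, edgeR adjusted p = 0.105 and 0.301) or either E6R library (1.29 and 1.29, 0.0697 and 0.0679).

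The transcriptional regulators among the members had no call in any of the 3 comparisons. NLRC5 (chr16:56989485-57083531, plus strand) was at 5.10 and 5.16 CPM in DMSO, 4.03 and 1.83 CPM in TSA, and 4.93 and 4.89 CPM in E6R. Both TSA libraries were below the others, at a log2 difference from DMSO of -0.80 (interval -1.92 to 0.31, edgeR adjusted p = 0.239). The interval for E6R against DMSO was -1.15 to 1.02. IRF1 (chr5:132481609-132490798, minus strand) was at 11.3 and 6.12 CPM in DMSO, 6.31 and 8.10 CPM in TSA, and 4.93 and 4.10 CPM in E6R. DMSO and TSA overlapped, and E6R was below both, at -0.94 against DMSO (interval -1.90 to 0.01, edgeR adjusted p = 0.292). IRF1 was denser in the barcodes with under 200 genes, which are too small to be cells, than in the cells of the same library, by 1.47 to 3.28 times in all 6 libraries. B2M was less dense there, at 0.609 to 0.880 times its CPM in cells.

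**Figure D3:**
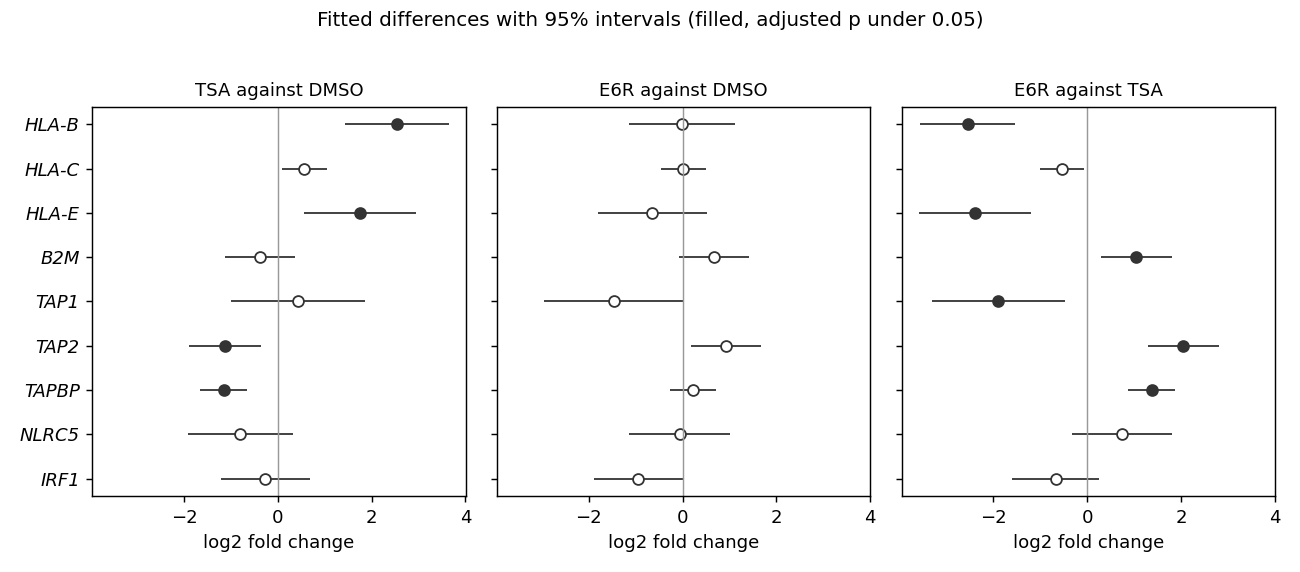
Fitted log2 fold changes (x axis) of the 9 genes (rows) in each of the 3 comparisons (panels), with 95% intervals; filled points had an edgeR adjusted p under 0.05. TAP2 and TAPBP lie left of 0 and HLA-B and HLA-E right of 0 for TSA against DMSO, each on the other side for E6R against TSA, and no point is filled for E6R against DMSO.

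The members did not move as 1 group. Their median log2 fold change was -0.27 for TSA against DMSO, beside -0.01 over all genes tested, -0.02 beside 0.03 for E6R against DMSO, and -0.55 beside -0.09 for E6R against TSA. With TMM scaling, the libraries of TSA and DMSO did not overlap for 6 of 9 members (71.3% of all genes). Those of E6R and DMSO did not overlap for 5 of 9 (47.3%), and those of E6R and TSA for 9 of 9 (72.6%). After centring each gene over the 6 libraries, B2M and NLRC5 were the most alike pair of members, at 0.304 log2 units, and HLA-E and TAP2 the least, at 1.96. HLA-B and HLA-E were 0.613 apart, TAP2 and TAPBP 0.411, and TAP1 and TAP2 1.55. These are descriptions over 6 libraries that share their scaling.

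Cell by cell, most cells had no UMI of a given member. With each cell thinned to 1000 UMIs, which left out 503 to 1718 shallower cells per library, B2M was seen in 23.5% and 26.0% of DMSO cells, 20.8% and 11.2% of TSA cells, and 35.4% and 27.5% of E6R cells. As deposited, without thinning, the B2M shares were 35.9% and 32.1%, 45.7% and 27.2%, and 57.8% and 40.0%. HLA-E was seen in 10.4% and 5.11% of DMSO cells, 24.3% and 15.4% of TSA cells, and 6.59% and 2.15% of E6R cells. TAPBP was seen in 6.91% and 5.35%, 2.27% and 1.97%, and 6.50% and 5.79%, and HLA-C in 8.17% and 7.02%, 10.2% and 7.46%, and 7.09% and 8.57%. The HLA-E shares of TSA were above, and the TAPBP shares below, those of both other groups, as for the sums. HLA-B was seen in 0 of 1187 thinned cells of DMSO replicate 1, though in 6 of 1861 cells (0.322%) as deposited. At 1000 UMIs the exact 95% upper limit on the share of cells with a UMI there was 0.310%. HLA-B was seen at that depth in 0.178% of DMSO replicate 2, 0.864% and 0.645% of TSA cells, and 0.136% and 0.180% of E6R cells. A UMI of any member was seen in 42.2% and 40.7% of DMSO cells, 46.6% and 32.6% of TSA cells, and 48.9% and 41.4% of E6R cells. The 2 TSA libraries lay on either side of both DMSO libraries, and E6R replicate 1 was the highest of the 6. No cell type without these genes was at hand to set the level of free RNA. In barcodes with under 200 genes, HLA-E was at 0.755 to 2.05 times its CPM in cells, HLA-C at 0.707 to 1.03 times and TAPBP at 0.733 to 1.19 times.

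**Figure D4:**
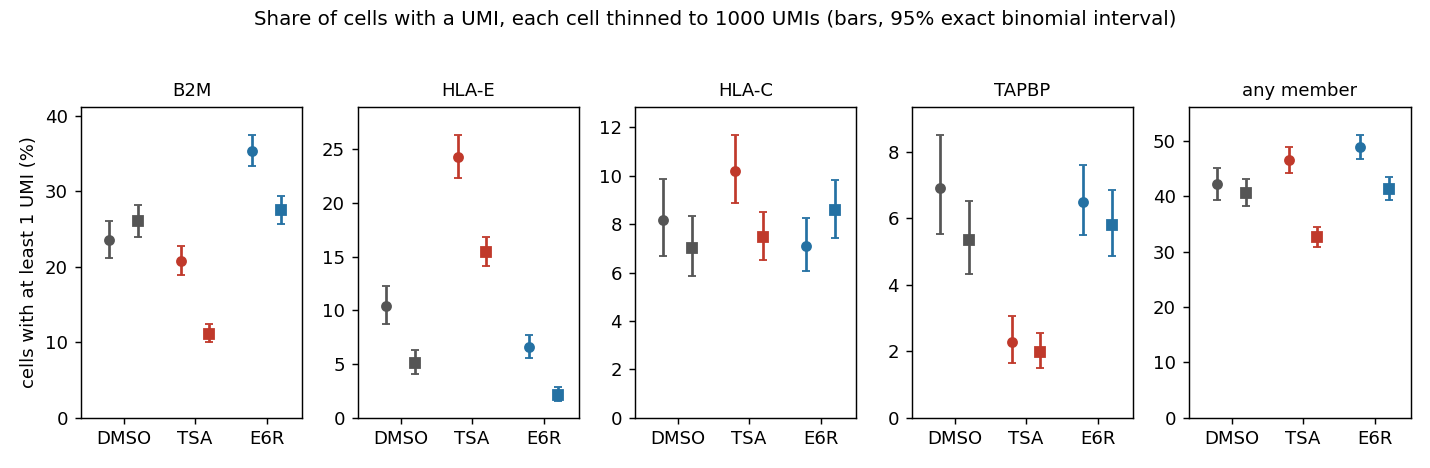
Share of cells with at least 1 UMI (y axis, percent, own scale for each panel) of B2M, HLA-E, HLA-C, TAPBP and any of the 9 genes by treatment (x axis), each cell thinned to 1000 UMIs; points are libraries (circle, replicate 1; square, replicate 2) and bars are 95% exact binomial (Clopper-Pearson) intervals, which cover counting error only. HLA-E stands highest in both TSA libraries and TAPBP lowest, while the shares for any member overlap between TSA and the other groups.

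At 1000 UMIs the variance of the member counts over their mean was highest for TAP2 in E6R replicate 2, at 1.51, with TAP1 at up to 1.33 and IRF1 at up to 1.26. At means far below 1 UMI per cell this ratio lies near 1 for most spreads, so it shows little about how cells differ. That of HLA-E lay between 1.06 and 1.43 per library, of B2M between 0.975 and 1.21, and of HLA-C between 0.982 and 1.12, where counting alone gives 1. In TSA replicate 1, 75.7% of cells had no HLA-E, against 74.1% for a Poisson count of the same mean. Cells with both HLA-E and B2M numbered 34 and 20 in DMSO, 116 and 60 in TSA, and 60 and 7 in E6R. The product of the separate shares gave 28.9 and 22.4, 93.5 and 47.9, and 51.3 and 13.2 such cells. Observed numbers were thus above that product in 4 of 6 libraries and below it in DMSO replicate 2 and E6R replicate 2.

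The other genes of the pathway came from 9 lists of 135 genes, of which 115 were tested. TSA against DMSO called 51 of them (44.3%), 33 higher and 18 lower, where 29.7% of all genes tested were called, 16.2% higher and 13.5% lower. E6R against DMSO called 0 by edgeR. E6R against TSA called 62 (53.9%), 26 higher and 36 lower, where 38.2% of all genes were called, 18.7% higher and 19.5% lower. With library size alone as the scaling, TSA called 24 higher and 26 lower, so the balance of directions depends on the scaling. Without TSA replicate 1 or 2, the TSA calls fell to 21 and 19, and without DMSO replicate 1 or 2 to 25 and 30. The E6R calls against TSA fell to 28 without TSA replicate 1 and to 30 without TSA replicate 2. For E6R against DMSO, 25 of the 115 list genes had an unadjusted p under 0.05, beside 17.4% of all genes. DESeq2 called 6 list genes, all higher, where it called 1.32% of all genes, 76.4% of those higher. Without the low-count filter edgeR called 9, 8 of them higher, where it called 3.47% of all genes, 65.8% of those higher.

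**Figure D5:**
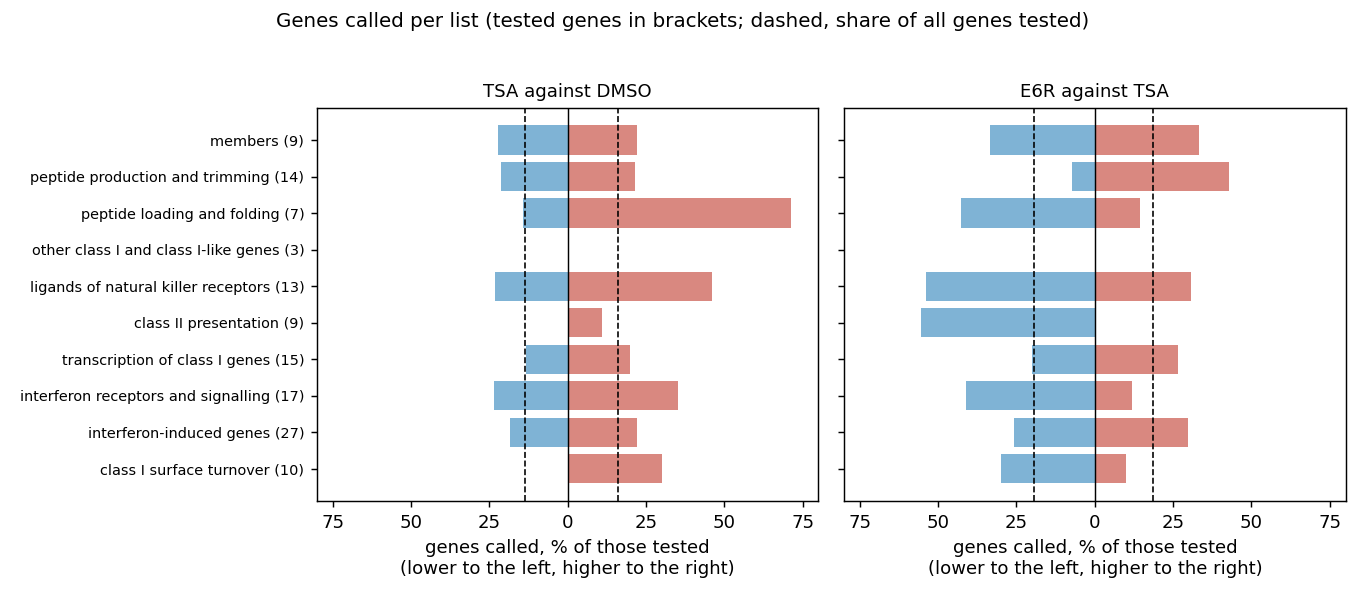
Share of tested genes called lower (left of 0) and higher (right of 0), in percent (x axis), for the 9 members and the 9 pathway lists (rows, number tested in brackets) in 2 comparisons; dashed lines give the same share over all genes tested. Peptide loading and folding has 5 of 7 genes higher in TSA, and class II presentation has 5 of 9 lower in E6R than in TSA.

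Most of the chaperones that fold and load class I molecules rose in TSA. Of 7 tested, 5 were called higher and 1 lower, beside 16.2% and 13.5% of all genes, with a median log2 fold change of 0.70 beside -0.01 over all genes. CALR, the chaperone calreticulin of the loading complex, was at 508 and 608 CPM in DMSO, 2316 and 2771 CPM in TSA, and 784 and 1084 CPM in E6R. CALR rose by 2.19 (SE 0.25, edgeR adjusted p = 0.00145), and HSPA5, a general chaperone of the endoplasmic reticulum, by 1.39 (SE 0.21, edgeR adjusted p = 0.00373). TAPBPL, the tapasin-like peptide editor, fell with TAPBP, by 1.42 on the log2 scale (SE 0.32, edgeR adjusted p = 0.0137). The count fell to 3 without DMSO replicate 1, DMSO replicate 2 or TSA replicate 1, and to 2 without TSA replicate 2. TAPBPL lost its call without DMSO replicate 1, TSA replicate 1 or TSA replicate 2 (edgeR adjusted p = 0.0728, 0.0586 and 0.13). PDIA3, the oxidoreductase of the loading complex, had the smallest p of the list for E6R against DMSO, at 0.88 (SE 0.20, edgeR adjusted p = 0.205).

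In peptide production 3 of 14 genes rose and 3 fell in TSA, 42.9% in all, where 16.2% of all genes tested rose and 13.5% fell. PSMB5 and PSMB6, catalytic subunits of the constitutive proteasome, fell by 1.20 (SE 0.29, edgeR adjusted p = 0.0185) and 1.35 (SE 0.24, edgeR adjusted p = 0.00601) on the log2 scale. TPP2, a cytosolic peptidase, rose by 1.39 (SE 0.25, edgeR adjusted p = 0.00590). Both subunits were higher in E6R than in TSA, by 1.64 and 1.48 (edgeR adjusted p = 0.00420 and 0.00283), and stood so under each of 20 alternatives. Against DMSO, PSMB5 lost its call without DMSO replicate 1 or TSA replicate 2 (edgeR adjusted p = 0.0986 and 0.132), PSMB6 without TSA replicate 2 (0.0573), and TPP2 without DMSO replicate 2 (0.0585). The list count fell to 1 without TSA replicate 2.

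Interferon signalling genes changed in both directions in TSA, 6 of 17 higher and 4 lower, beside 16.2% and 13.5% of all genes. IRF7, a factor of the type I response, rose by 2.52 on the log2 scale (SE 0.35, edgeR adjusted p = 0.00254), and IFNGR2, a chain of the interferon gamma receptor, fell by 2.36 (SE 0.34, edgeR adjusted p = 0.00279). Both calls stood under each of 20 alternatives.

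Interferon-induced genes had 6 of 27 higher and 5 lower in TSA, not far from the 16.2% and 13.5% of all genes, with a median of -0.54 beside -0.01. BST2, a surface protein that tethers virus particles, rose by 2.10 (SE 0.52, edgeR adjusted p = 0.0206), while OAS1, a sensor of double-stranded RNA, fell by 2.60 (SE 0.74, edgeR adjusted p = 0.0326) and IFI35 fell by 2.24 (SE 0.43, edgeR adjusted p = 0.00780). These 3 calls held in 16, 15 and 17 of 20 alternatives, and no gene of this list was called without TSA replicate 1 or without TSA replicate 2. OAS1 rested on DMSO replicate 1, at 30.4 CPM against 5.74 CPM in DMSO replicate 2, and without it its change was -0.91 (edgeR adjusted p = 0.312).

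Of 15 genes listed for the transcription of class I genes, 3 rose and 2 fell in TSA, near the 16.2% and 13.5% of all genes. Most encode transcription factors, and NFKBIA encodes an inhibitor of NF-kappa-B. The NF-kappa-B subunits split: NFKB1 was at 30.6 and 26.2 CPM in DMSO and 2.81 and 3.66 CPM in TSA, a fall of 3.13 (SE 0.28, edgeR adjusted p = 0.000827), and NFKB2 was at 9.77 and 6.12 CPM in DMSO and 36.0 and 50.7 CPM in TSA, a rise of 2.45 (SE 0.35, edgeR adjusted p = 0.00275). In E6R they were at 26.7 and 24.8 CPM and at 5.37 and 3.91 CPM, both different from TSA (2.99 and -3.23, edgeR adjusted p = 0.000461 and 0.000651). These calls stood under each of 20 alternatives. NFYA, a subunit of NF-Y, rose by 1.38 (SE 0.31, edgeR adjusted p = 0.0147), a call lost without DMSO replicate 1, DMSO replicate 2 or TSA replicate 2 (edgeR adjusted p = 0.0672, 0.0949 and 0.109).

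In the list of ligands of natural killer cell receptors, 9 of 13 were called for TSA, 6 higher and 3 lower, beside 29.7% of all genes. That list was drawn widely and also holds CD274, PDCD1LG2 and CD47, which are better known as ligands of other receptors. CD276 and NCR3LG1, surface proteins of the B7 family, the latter a ligand of NKp30, fell by 1.79 (SE 0.21, edgeR adjusted p = 0.00159) and 1.91 (SE 0.29, edgeR adjusted p = 0.00340). ULBP3, a ligand of NKG2D, was at 4.67 and 4.78 CPM in DMSO, 13.0 and 11.7 CPM in TSA, and 4.93 and 4.14 CPM in E6R, a rise of 1.38 in TSA (SE 0.34, edgeR adjusted p = 0.0203). Both falls stood under each of 20 alternatives, while ULBP3 held its call in 14 of 20 and lost it on leaving out any 1 of the 4 libraries compared (edgeR adjusted p = 0.0835 to 0.134). In the same list E6R differed from TSA for 11 of 13, 4 higher and 7 lower, beside 38.2% of all genes.

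Of the 10 tested genes that remove class I molecules from the cell, 3 rose and 0 fell in TSA, 30.0% beside 29.7% of all genes. SYVN1 and SEL1L, the core of an endoplasmic reticulum degradation complex, rose by 2.03 (SE 0.26, edgeR adjusted p = 0.00212) and 1.63 (SE 0.29, edgeR adjusted p = 0.00642), and TMEM127 by 0.66 (SE 0.21, edgeR adjusted p = 0.0494). The TMEM127 call held in 7 of 20 alternatives, and not with any 1 of the 4 libraries left out (edgeR adjusted p = 0.128 to 0.205), nor that of SEL1L without DMSO replicate 2 (0.0532). Class II presentation, which uses another transactivator, had 1 of 9 called in TSA against DMSO and 5 of 9 lower in E6R than in TSA (19.5% of all genes), a count that fell to 1 without TSA replicate 1. CIITA, that transactivator, was at 2.55 and 8.42 CPM in DMSO, a mean of 2.56 CPM in TSA (SD 0.190, n = 2), and 0.505 and 2.41 CPM in E6R, with no call. The 3 tested class I-like genes outside the members had 0 called in any comparison by edgeR or DESeq2, and 0 in TSA and 2 in E6R had an unadjusted p under 0.05 against DMSO.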

How the data were processed

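The authors deposited whole-number UMI counts per gene and barcode, made with STARsolo 2.7.9a on GRCh38 per the submitters' processing notes. The sources used here state no rule for barcodes, annotation, strand or reads that fit several genes. The file of TSA replicate 2 carries a mark in its name that the other 5 lack and that no source explains. Cells were barcodes with at least 500 genes and at most 20% of UMIs from 13 mitochondrial genes. Doublets were not called, and a fit without the 5% deepest cells was run as an alternative, with its lost calls given beside the members. Cells are not replicates, so each library entered as its summed UMI counts, and all 6 sums entered 1 fit in edgeR 4.0.16 (R 4.3.3) with TMM, filterByExpr, glmQLFit and glmQLFTest, treatment as the model term and Benjamini-Hochberg adjusted p-values called under 0.05. SE is the log2 fold change over the root of F. The common biological coefficient of variation was 0.288, and counts of replicates differed by 19.7 (DMSO), 41.5 (TSA) and 79.3 (E6R) times counting noise (chi-square per degree of freedom).

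Replicate numbers come from the sample titles. Deviations from group means correlated between same-numbered libraries at 0.242 (DMSO and TSA), 0.564 (DMSO and E6R) and 0.166 (TSA and E6R) over 7515 genes. The main fit did not use the numbers, so the calls above ignore any pairing of libraries. A fit with the number as a block was an alternative, and called 6047 genes for TSA against DMSO in place of 4975. With only 2 numbers, each such correlation reads the same contrast of 1 against 2.

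Alternatives were DESeq2 1.42.0, RLE or no scaling factors, no filter, other cell filters, thinning (seeded), fewer genes and fewer libraries. Shares of cells have exact binomial intervals at 95%, and the floor for 0 is 3 cells; both cover counting error only. Coordinates are from GENCODE 29 (GRCh38) and promoters from RefSeq. Protein sequences were not used here. Counts were simulated for TSA against DMSO, E6R against DMSO and E6R against TSA. Of 100 genes changed 2-fold, 5%, 8% and 4% were called, and of 100 changed 4-fold, 58%, 60% and 63%. The same runs also called 6, 15 and 8 genes that had been left unchanged. Only those genes were changed, far fewer than the 4975 and 6408 called in TSA against DMSO and E6R against TSA. The adjusted p-value depends on how many genes change, so the shares cannot be carried over to those 2 comparisons. For E6R against DMSO the real counts gave 0 calls, with 17.4% of genes at an unadjusted edgeR p under 0.05, unlike the simulated run. The shares cannot be carried over there either, and a missed call does not show that a gene was unchanged. The members and lists were chosen with earlier results of these data known. Named pathway genes were, per list and comparison, up to 3 of the largest called changes at a mean of 5 CPM or more with groups that did not overlap, the smallest p per list for E6R against DMSO, and always PSMB8, PSMB9 and CIITA. Not every gene the rule allows is printed, and 1 gene it always names is not reported here.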

Additional observations from a re-analysis of the deposited data

How the results depend on the processing

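With 2 libraries per group, the number of members called depended on single libraries. Leaving out 1 library gave 0 to 4 members for TSA against DMSO, in place of 4, and 0 to 0 for E6R against DMSO, in place of 0. It gave 3 to 6 for E6R against TSA, in place of 6. The lowest counts came without TSA replicate 1. Without the low-count filter, 1 member, B2M, was called for E6R against DMSO. Other alternatives moved no count of members by more than 1.5 times. With the replicate number as a block the counts were 4, 0 and 6, and the block changed no member's call: HLA-E in TSA against DMSO, for example, had a log2 fold change of 1.84 (edgeR adjusted p = 0.000216). Without the 5% deepest cells, the only step taken on doublets, the calls of HLA-E for TSA against DMSO and of B2M and TAP1 for E6R against TSA were lost. Each called member had the same sign under every alternative that tested it, library size alone included, although that scaling moved the median of all genes for TSA against DMSO from -0.01 to -0.32 and the higher share of all calls from 54.7% to 33.8%. Over all genes, E6R against DMSO had 0 calls by edgeR, 1095 without the filter, 415 by DESeq2 and 19 with the block. TSA against DMSO had 4975, and 2508, 2696, 1769 and 1416 without DMSO replicate 1, DMSO replicate 2, TSA replicate 1 and TSA replicate 2. E6R against TSA had 6408, and 3175 and 2628 without TSA replicate 1 and 2. The share of cells with a UMI of any member differed between TSA and DMSO by -1.82 percentage points at 1000 UMIs per cell, but by 13.1 with cells as deposited and 11.9 with those of at least 300 genes. For E6R against DMSO these were 3.72, 11.2 and 9.29. Depth limited HLA-B and TAP1 most, with as few as 6 UMIs in a library. Protein identity between the heavy chains was not run.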
